A study of Mus musculus with 2 samples.

Results

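The genes described here encode the constitutive proteasome of the mouse, its activators and the chaperones that assemble it. They were chosen by symbol: every gene named Psm, then a letter from a to g, then a digit, with at least 1 protein-coding transcript and without the immunoproteasome subunits Psmb8, Psmb9 and Psmb10. The rule found 47 of 55536 annotated genes, 22015 of which are protein-coding genes on nuclear chromosomes. Of the 47 genes, 31 encode subunits of the 26S particle, 5 encode activators or an inhibitor of the core, and 7 encode assembly chaperones. The other 4 are Psme2b, a copy of the activator gene Psme2, the core subunits Psma8 and Psmb11, known from testis and thymus, and Psmc3ip. Psmc3ip answers to the symbol pattern only, since its product is a meiotic recombination factor and not a proteasome protein.

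The 26S proteasome degrades proteins marked with ubiquitin. Its barrel-shaped core has outer rings of alpha subunits, which gate the entry, and inner rings of beta subunits, some of which cut the substrate. A regulatory particle sits on the core, with a base whose ring of ATPases unfolds the substrate and a lid that removes the ubiquitin chain. Each core holds its different subunits in equal number, and so does each regulatory particle. In macrophages the proteasome also degrades the inhibitor that holds NF-kappaB in the cytosol after Toll-like receptor signalling, and it makes the peptides that MHC class I presents.

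Sequencing of total RNA without ribosomal RNA was done on cytosol of primary macrophages, which were derived from bone marrow of C57BL/6J mice. The cells of both libraries had received lipid A, the Toll-like receptor 4 ligand within lipopolysaccharide, at 100 ng/ml for 75 minutes, and 1 µg of RNA went into each library. The labels number the libraries as biological replicates 1 and 2 of 1 group, give the same donor identifier for both and no genotype beyond the strain, and do not say whether the libraries came from separate animals or cultures. With 1 group and no untreated library analysed here, no level below is a response to lipid A and no test between groups exists. Errors are SDs over n = 2 libraries, which may hold technical spread only.

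Library totals over genes were 55596625 expected counts in replicate 1 and 50157146 in replicate 2. All 6 macrophage markers examined reached 1 TPM (a transcript level corrected for length and for the library's total), against 3 of 6 for neutrophils, 2 of 6 for dendritic cells, and 1 of 6 each for T and NK cells and for B cells. The nuclear RNAs Malat1 and Neat1 were measured in both cytosolic libraries and were higher in replicate 2, with all 5 measured RNAs of that list at log2 ratios from 1.34 to 2.25. Malat1 stood at 158 TPM in replicate 1 and at 799 TPM in replicate 2. The 7SL RNA of the signal recognition particle held 69.8% of all TPM in replicate 1 and 60.5% in replicate 2, which lowers the TPM of the other genes.

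Proteasome genes as a group were expressed well above the typical gene. Of the 47 genes, 44 reached a mean of 1 TPM, and the same number did so in each library. Over all 22015 protein-coding genes on nuclear chromosomes, 8644 reached that mean. The median over all 47 was 15.0 ± 0.61 TPM (SD, n = 2), against 0.10 TPM over all protein-coding genes and 6.10 TPM over the protein-coding genes that reached 1 TPM. All 31 subunits of the 26S particle had a mean above 10 TPM, and their median was 19.4 ± 0.80 TPM. The median of their mean TPM, 20.1 TPM, lay at percentile 92.6 of protein-coding genes. The chaperones were lower, with a median of 2.48 ± 0.14 TPM.

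**Figure D1:**
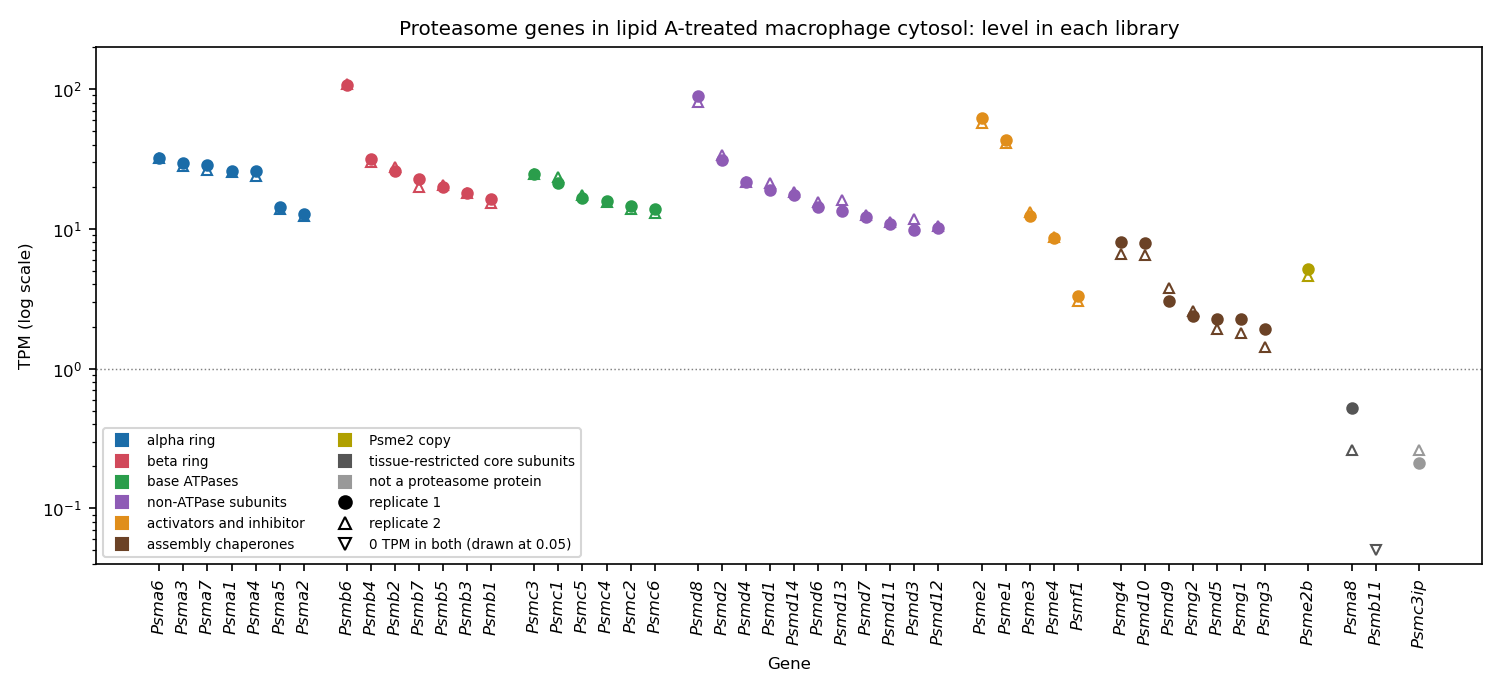
Level of each proteasome gene in TPM (log scale), grouped by role, with a filled circle for replicate 1 and an open triangle for replicate 2; the dotted line marks 1 TPM. Psmb6 and Psmd8 stand above the other subunits in both libraries, and Psma8, Psmb11 and Psmc3ip lie under the line.

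The NF-E2-related transcription factors, Nfe2l1 and Nfe2l2, bind the antioxidant response element and drive proteasome genes, Nfe2l1 when the proteasome is inhibited. Both were expressed. Nfe2l1 stood at 20.9 and 27.7 TPM in replicates 1 and 2, and Nfe2l2, the main factor of the oxidative stress response, at 114 and 97.9 TPM. RefSeq promoter windows of 300 bases on GRCm38.p6 (mm10), 250 before to 50 after the start, were available for 39 of the 47 genes and for 25 of the 31 subunits. The stretches that follow lie upstream of the transcript start of 3 subunits that carry the short element TGACNNNGC: Psmb6, the subunit of highest level, Psmb5, the catalytic subunit that clinical proteasome inhibitors target, and Psmd12, the subunit of lowest mean level. Each ends at the base before the RefSeq start or the start of the gene's leading transcript, whichever came first, and capitals mark the element, on either strand.
Psmb6, chr11:70525107-70525356, plus strand: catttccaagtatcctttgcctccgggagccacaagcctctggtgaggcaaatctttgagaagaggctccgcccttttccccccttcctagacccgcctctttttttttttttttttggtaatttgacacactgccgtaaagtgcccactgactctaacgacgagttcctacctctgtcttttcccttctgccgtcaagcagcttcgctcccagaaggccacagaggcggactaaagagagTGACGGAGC
Psmb5, chr14:54618023-54618245, minus strand: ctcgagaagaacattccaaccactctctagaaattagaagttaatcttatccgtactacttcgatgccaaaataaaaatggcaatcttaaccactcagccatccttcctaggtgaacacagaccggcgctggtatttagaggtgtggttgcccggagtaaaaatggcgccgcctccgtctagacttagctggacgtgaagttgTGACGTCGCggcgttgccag
Psmd12, chr11:107479278-107479483, plus strand: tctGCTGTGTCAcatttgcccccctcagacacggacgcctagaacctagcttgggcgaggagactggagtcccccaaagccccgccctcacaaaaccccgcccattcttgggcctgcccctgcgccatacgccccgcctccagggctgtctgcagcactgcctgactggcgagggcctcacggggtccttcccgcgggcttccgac

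The first base of the element lay 9 bases before the RefSeq start in Psmb6, 47 bases before it in Psmb5 and 247 bases before it in Psmd12, where it reads on the opposite strand. The element occurred in 6 of the 39 genes with a window (15.4%: Psmb5, Psmb6, Psmc6, Psmd12, Psmd9 and Psme4), against 14.0% of 27025 genes with a RefSeq window. A CCAAT box occurred in 14 of 39 (35.9%), against 41.1% of those genes. The kappa-B consensus was found in 6 of 39 (15.4%) against 9.55%, and the interferon-stimulated response element in 0 of 39 against 0.57%. Both strands were searched, overlaps between the motifs were kept, and a match is a description of letters, not of binding.

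The alpha ring, made of Psma1 to Psma7, was expressed evenly. Its median was 25.8 ± 0.36 TPM, and its highest member exceeded its lowest by 2.54-fold. Psma6 was the highest, at 32.0 TPM in replicate 1 and 31.95 TPM in replicate 2. Psma3 stood at 29.8 and 28.0 TPM, and Psma7, the subunit exchanged for Psma8 in male germ cells, at 28.6 and 26.2 TPM. Psma1 was at 26.1 and 25.6 TPM, and Psma4, whose amino-terminal tail is part of the closed gate of the core, at 26.1 and 23.9 TPM. The values of Psma3 overlapped those of Psma7, and the values of Psma1 those of Psma4. Psma5 (14.3 and 13.9 TPM) and Psma2 (12.8 and 12.4 TPM) formed a lower pair, below every value of the other alpha subunits.

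Psma8 replaces Psma7 in the proteasome of male germ cells and was scarcely present. It had 77 and 36 expected counts in replicates 1 and 2, or 0.52 and 0.26 TPM.

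Among the 7 beta subunits, Psmb6 stood apart. Psmb6 (gene at chr11:70525367-70527858) carries the caspase-like activity of the core, and it measured 106 TPM in replicate 1 and 109.6 TPM in replicate 2. The next beta subunit was Psmb4, a structural subunit, at 31.4 and 29.8 TPM, and neither library brought the values of any other beta subunit near those of Psmb6. Psmb2, also structural, followed at 25.7 and 27.6 TPM. Psmb7, the trypsin-like subunit, stood at 22.6 and 20.0 TPM and overlapped Psmb5, the chymotrypsin-like subunit, at 20.0 and 20.4 TPM. The remaining structural subunits were the lowest, Psmb3 at 17.9 and 18.1 TPM and Psmb1 at 16.4 and 15.2 TPM. The ring's median was 21.5 ± 1.53 TPM, and without Psmb6 its highest and lowest members differed by 1.94-fold.

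Psmb11 encodes the beta subunit of the proteasome of thymic cortical epithelium and lies 3.41 kb from Psmb5 on chromosome 14. It was listed at 0 expected counts in both libraries, which allows up to 3 counts in each, and the second deposited quantification gave it 3.11 and 11.6 estimated counts.

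The immunoproteasome subunits replace the catalytic beta subunits in cells exposed to interferon and in many immune cells. The relation between partners differed from pair to pair. Psmb8, at 33.9 and 34.2 TPM, exceeded its partner Psmb5 by 0.75 ± 0.012 on the log2(TPM + 0.1) scale (1.68-fold), and Psmb10, at 32.6 and 29.6 TPM, exceeded Psmb7 by 0.55 ± 0.025 (1.46-fold). Psmb9, at 14.3 and 10.3 TPM, was lower than Psmb6, with a log2 difference of -3.14 ± 0.36, or 8.82-fold more Psmb6. Each difference kept its sign in both libraries and exceeded its SD. In the second quantification the difference between Psmb10 and Psmb7 was 0.34, smaller than in the first.

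**Figure D2:**
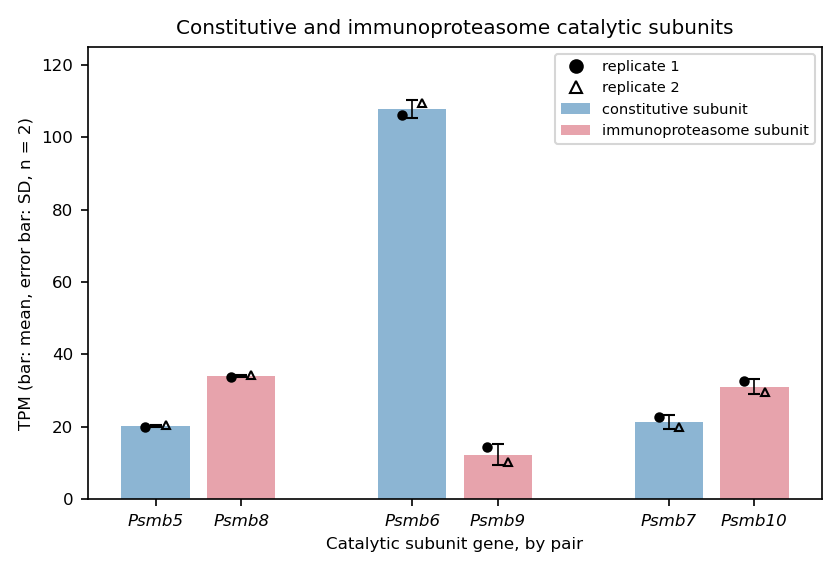
TPM of each constitutive catalytic subunit beside the immunoproteasome subunit that replaces it; bars are means of 2 libraries, whiskers the SD, and the circle and triangle the values of replicates 1 and 2. Psmb8 and Psmb10 exceed Psmb5 and Psmb7, and Psmb9 is below Psmb6.

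The base ATPases were close to each other in level. The 6 genes had a median of 16.4 ± 0.17 TPM, with 1.86-fold between the highest and the lowest. Psmc3 was the highest at 24.8 TPM in both libraries (24.85 and 24.75), followed by Psmc1 at 21.4 and 23.7 TPM. These were the only base ATPases above 20 TPM in both libraries. Psmc5 (16.7 and 17.6 TPM), Psmc4 (15.8 and 15.4 TPM), Psmc2 (14.6 and 13.9 TPM) and Psmc6 (13.8 and 12.9 TPM) followed in this order in both libraries, and the lower value of Psmc2 nearly met the higher value of Psmc6. All 6 encode AAA-type ATPases that sit in 1 ring of the base.

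The 11 non-ATPase subunits of the base and lid had a median of 15.2 ± 1.10 TPM, and again 1 gene stood apart. Psmd8, a lid subunit (gene at chr7:29174188-29180701), measured 89.1 TPM in replicate 1 and 80.9 TPM in replicate 2. Psmd2, the scaffold of the base and the second largest of this role by level, measured 31 and 33.7 TPM. Without Psmd8 the highest and the lowest of the role differed by 3.14-fold, more than in the alpha ring or among the ATPases.

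The ubiquitin receptors and scaffolds of the base were spread. Psmd4, a receptor for ubiquitin chains, stood at 21.6 TPM in each library (21.63 and 21.65), and Psmd1, the other large scaffold of the base, at 18.9 and 21.3 TPM. The values of Psmd1 reached to either side of 20 TPM and came close to those of Psmd4 in replicate 2 only. Psmd14, the metalloprotease of the lid that cleaves off the ubiquitin chain, followed at 17.6 and 18.2 TPM.

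The remaining lid subunits had mean levels below the median subunit. Psmd6 was at 14.4 and 15.6 TPM, Psmd13 at 13.4 and 16.0 TPM and Psmd7, the partner of Psmd14, at 12.2 and 12.6 TPM. Psmd11 (10.8 and 11.3 TPM), Psmd3 (9.88 and 11.8 TPM) and Psmd12 (10.2 and 10.5 TPM) were the lowest, and the values of Psmd3 spanned those of both others. Psmd3 and Psmd13 differed most in TPM between libraries in this set, both with the higher TPM in replicate 2. On counts scaled between the libraries, replicate 2 was 1.15 times replicate 1 for Psmd3 and only 1.02 times for Psmd13.

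Over the 31 subunits, the relative SD between libraries had a median of 3.58% and a highest value of 12.6%, while levels between subunits differed by up to 10.5-fold. Psmb6 was 5.37 times and Psmd8 4.23 times the median subunit by mean TPM (20.1 TPM), and the next subunit, Psmd2, was 1.61 times that median. The other 29 subunits all lay within 2-fold of it. Of 8644 protein-coding genes at 1 TPM or more, 3688 lay within 2-fold of their own median. Across genes, the SD of log2(TPM + 0.1) was 0.76 for the 31 subunits, against 1.80 for protein-coding genes at 1 TPM or more. Without Psmb6 and Psmd8 it was 0.50, but these were left out after their levels were seen, and no gene was left out of the other sets. Other complexes whose subunits are needed in fixed ratios gave 0.22 for the 8 genes of the cytosolic chaperonin CCT, with a median near that of the proteasome at 21.8 TPM, and 0.87 for 77 cytosolic ribosomal proteins. Within 2-fold of their own medians lay 8 of 8 CCT genes and 63 of 77 ribosomal proteins. These complexes were chosen for comparison after the proteasome values had been seen, and no test was made of the differences.

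**Figure D3:**
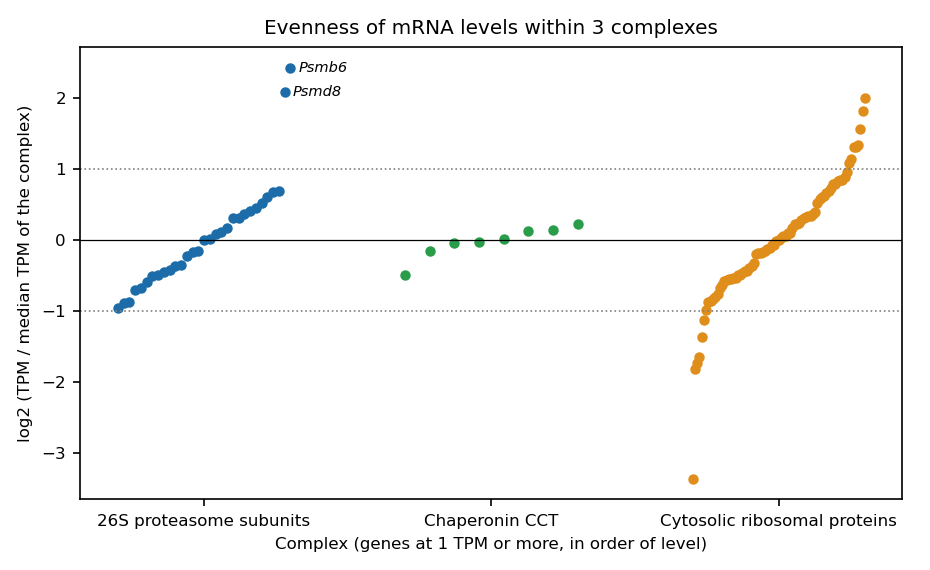
Log2 of each gene's mean TPM over the median of its complex, for 31 subunits of the 26S proteasome, 8 of the chaperonin CCT and 77 cytosolic ribosomal proteins, ordered by level; dotted lines mark 2-fold from the median. Among the proteasome subunits, Psmb6 and Psmd8 are the 2 genes outside the lines.

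Activators can cap the core in place of the regulatory particle and open its gate. Psme1 and Psme2, which form the interferon-inducible PA28 ring of the cytosol, had levels above the median subunit. Psme2 measured 62.5 and 57.6 TPM and Psme1 43.4 and 40.8 TPM, with no overlap between them. The genes lie 5.91 kb apart on chromosome 14. Psme3, the nuclear PA28 subunit, was at 12.3 and 13.2 TPM, and Psme4, the large single-chain activator PA200, at 8.54 and 8.69 TPM. Psmf1, an inhibitor of the core, was the lowest of this role at 3.31 and 3.03 TPM.

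Psme2b was listed at 5.17 and 4.63 TPM, but its reads are hard to tell from those of Psme2. Over 794 aligned bases of their leading transcripts, 789 were identical (99.4%). Psme2b took 8.02% and 7.80% of the pair's counts in the first quantification and 12.8% and 12.4% in the second, so the division between the genes depended on the method, and the level of Psme2b is uncertain.

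Chaperones leave the particle once it is built, and their median level lay below those of the 26S rings, the ATPases, the non-ATPase subunits and the activators. The core chaperones work as pairs, Psmg1 with Psmg2 and Psmg3 with Psmg4. Psmg1 (2.27 and 1.81 TPM) and Psmg2 (2.38 and 2.58 TPM) were close in level. Psmg3 (1.91 and 1.42 TPM) was lower than its partner Psmg4 (8.07 and 6.61 TPM), and the 4.41-fold gap between their means was larger than the spread of either. The chaperones of the base were Psmd10, also known as gankyrin, at 7.87 and 6.53 TPM, Psmd9 at 3.06 and 3.78 TPM, and Psmd5 at 2.25 and 1.93 TPM. The core maturation factor Pomp, whose symbol falls outside the rule, was far higher than any of these at 36.3 and 36.1 TPM.

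Other genes of the pathway, from lists of subunits and partners with other names and of shuttle factors, were all expressed. All 9 of 9 genes of the first list and 12 of 12 of the second reached 1 TPM, as did the 3 immunoproteasome genes. The small lid subunit Sem1 measured 26.6 and 23.3 TPM, and Adrm1, a ubiquitin receptor of the base, 14.1 and 16.2 TPM, both within the range of the 31 subunits. Txnl1, a redox protein bound to the regulatory particle, measured 20.5 and 19.3 TPM. Rps27a, which encodes ubiquitin fused to a ribosomal protein, measured 273 and 208 TPM, and the polyubiquitin gene Ubb 178 and 139 TPM, both above every subunit. Among shuttle factors and the segregase, Vcp, the ATPase that extracts ubiquitinated proteins, was the most abundant at 41.7 and 50.2 TPM, followed by Zfand5, a zinc-finger protein that binds the proteasome, at 41.2 and 45.6 TPM, Zfand2a, a stress-inducible relative, at 20.96 and 20.8 TPM, and the shuttle Rad23b at 16.5 and 16.4 TPM.

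The libraries were then set against each other on scaled counts, for genes with a mean count of at least 10. Of 46 proteasome genes measured this way, 12 were higher and 34 lower in replicate 2, against 49.3% higher and 50.7% lower over all genes measured. The median log2 ratio of replicate 2 to replicate 1 was -0.08, against -0.02 over protein-coding genes and -0.00 over all genes measured. A difference over 1.5-fold was seen for 0 genes higher and 1 gene lower in replicate 2, while 10.5% of 13392 genes measured were higher and 3.52% lower by that much. Over 2-fold, 0 proteasome genes lay in either direction, against 6.0% higher and 0.963% lower over all genes measured. The gene past 1.5-fold was Psma8, with a ratio of 0.54 (95% Clopper-Pearson interval 0.35 to 0.81, counting error only) on its 77 and 36 counts. The 13392 genes reach down to a mean count of 10, while the 31 subunits held 978 to 12061 counts per library.

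**Figure D4:**
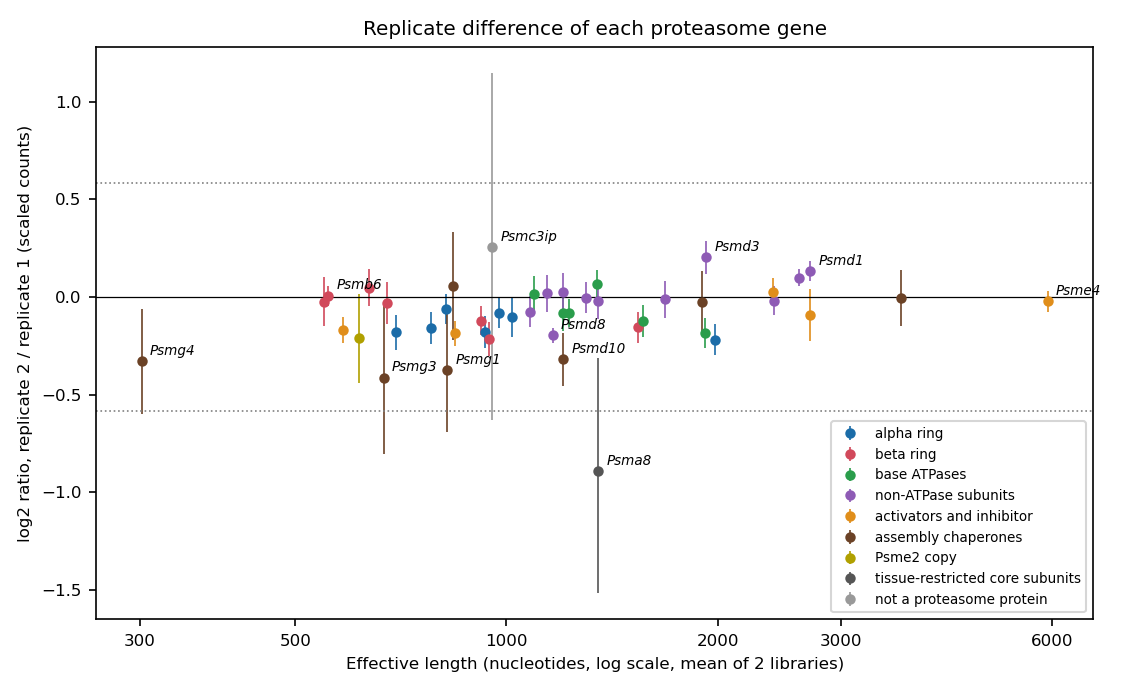
Log2 ratio of scaled counts, replicate 2 over replicate 1, against effective length in nucleotides (log scale) for the 46 proteasome genes measured; whiskers are 95% Clopper-Pearson intervals (counting error only) and dotted lines mark 1.5-fold. Psma8 is the gene past a line, the chaperones Psmg3, Psmg1, Psmg4 and Psmd10 lie below most others, and Psmd3 and Psmd1 lie above 0.

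The small differences were uneven over the roles. All 7 alpha subunits were lower in replicate 2 (median log2 ratio -0.16), and the beta ring (-0.03), the ATPases (-0.08) and the non-ATPase subunits (-0.00) lay nearer 0. The chaperones had the lowest median, -0.32, but were divided. Psmg3 was at -0.41 (145 and 95 counts), Psmg1 at -0.38 (217 and 146 counts), Psmg4 at -0.33 (282 and 196 counts) and Psmd10 at -0.32. Psmd9 (-0.02), Psmd5 (-0.005) and Psmg2 (0.06) lay near 0. Cytosolic ribosomal proteins had a median of -0.39 and CCT genes of 0.00. Counting intervals excluded a ratio of 1 for 22 of the 46 proteasome genes, 19 below and 3 above it, against 24.5% below and 25.7% above over all genes measured. Among genes with a mean count of at least 1000, the intervals of 14 of 35 proteasome genes lay below 1 and those of 3 above it, against 38.3% below and 32.4% above over all such genes. The 3 above were Psmd3, with a ratio of 1.15 (1.08 to 1.22), Psmd1 (1.10, interval 1.06 to 1.14) and Psmd2 (1.07, interval 1.04 to 1.10). With 1 library a side these intervals compare the libraries and not a condition.

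The median ratio rose with the class of transcript length. The 19 proteasome genes with an effective length under 1000 nucleotides had a median log2 ratio of -0.16, the 20 from 1000 to 2000 one of -0.08 and the 7 longer ones one of -0.01. Protein-coding genes in the same classes had medians of -0.15, -0.04 and 0.01. Across the 46 proteasome genes, Pearson's r of ratio with log2 effective length was 0.25 and Spearman's rho 0.30, a description over genes that share both libraries. The nuclear RNAs were higher in replicate 2, as given above. The part of transcript length or of nuclear RNA in the proteasome ratios was not tested.

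Most proteasome genes were read mainly from 1 transcript. For 46 genes with counts, the leading transcript, the one of highest mean expected count, was protein-coding in all 46 and held a median of 98.2% of the gene's counts (98.6% and 97.8% in replicates 1 and 2), against 91.6% over protein-coding genes measured. It held at least 90% in 34 genes. In 44 of the 46 the second quantification named the same leading transcript. Retained-intron transcripts held 2.02% and 2.48% of the genes' counts in replicates 1 and 2, against 1.33% and 1.76% over all protein-coding genes. Their mean share reached 10% in only 4 genes, Psma3, Psmc3ip, Psmb6 and Psme2, so the pooled percentages do not describe the typical proteasome gene. Transcripts annotated for nonsense-mediated decay held 0.95% and 1.04%, against 1.12% and 1.10%.

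**Figure D5:**
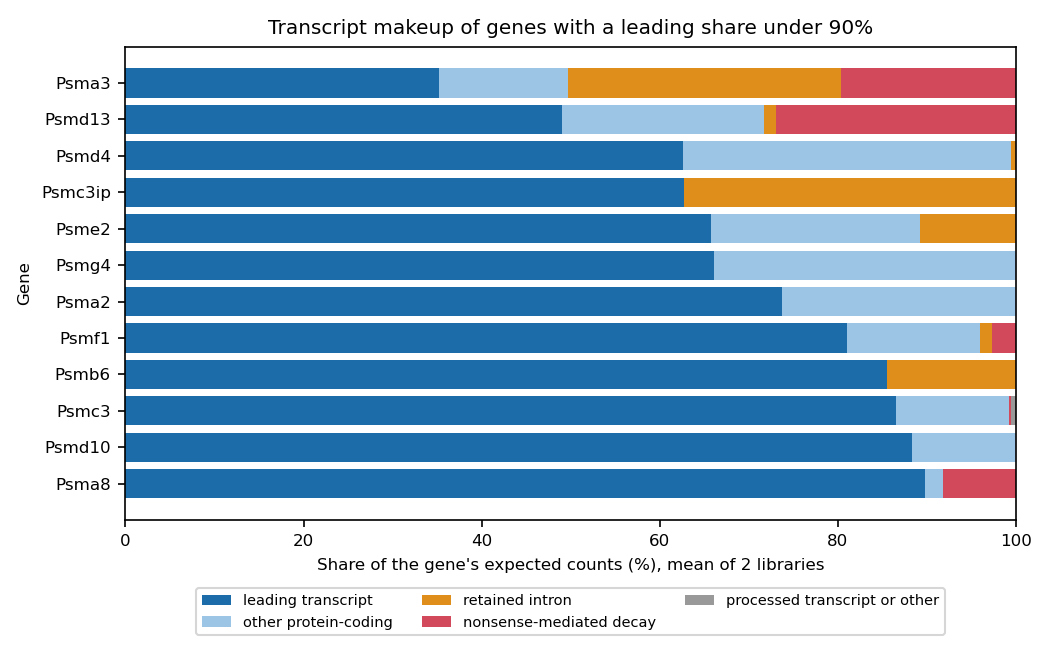
Transcript makeup, as percent of expected counts (mean of 2 libraries), of the 12 genes whose leading transcript held under 90%; colours give the leading transcript and the annotated class of the others. Psma3 and Psmd13 carry the largest shares of transcripts annotated for nonsense-mediated decay, and Psma3, Psmc3ip, Psmb6 and Psme2 over 10% of retained-intron transcripts.

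Psma3 was the most divided gene. Its leading transcript Psma3-204 held 35.2% of counts in replicate 1 and 35.3% in replicate 2, the retained-intron transcript Psma3-203 27.3% and 32.7%, and the nonsense-mediated-decay transcript Psma3-201 19.0% and 14.5%. In the second quantification the order changed and Psma3-203 led with 37.5%, so which transcript leads is uncertain, while the share outside protein-coding transcripts was large in both. Psmd13 came next, with 55.1% and 43.0% in Psmd13-201 and 23.8% and 30.0% in Psmd13-211, annotated for nonsense-mediated decay. These shares differed more between libraries than those of Psma3-204. The coding transcript Psmd13-208 held 18.3% and 19.1%, but 1.56% in the second quantification, where Psmd13-201 held 63.1%. The division among coding transcripts of Psmd13 is therefore uncertain. Psmd13-211 held 24.1% in the second quantification.

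In Psmd4 and Psme2, protein-coding transcripts shared most of the counts. Psmd4-202 held 61.6% and 63.7% of the Psmd4 counts and Psmd4-201 37.4% and 32.2%. Psme2-208 held 66.3% and 65.3% of Psme2 and the shorter Psme2-201 24.6% and 22.3%. Psmc3ip rests on 23.2 and 24.5 counts, divided between Psmc3ip-201 (59.3% and 66.0%) and the retained-intron Psmc3ip-202. In the second quantification Psmc3ip-202 led with 71.8%, so this division is uncertain as well. In Psmb6, the subunit of highest level, the retained-intron transcripts held 15.5% and 13.4% of counts, and the coding transcript Psmb6-201 held 84.5% and 86.6%, or 5765 and 5190 counts.

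The genes lie on 16 chromosomes, with 10 of the 47 on chromosome 11 and 6 each on chromosomes 2 and 14. Another annotated gene overlaps 21 of them, and in 6 the overlapping gene reached 1 TPM. The sources do not give the strand used in counting, so reads of overlapping genes on opposite strands, such as Psmb7 with Nek6 (8.06 TPM) and Psmc3 with Slc39a13 (3.54 TPM), may have been divided with error. In 2 of the 47 genes the overlapping gene was the higher one. Mlx (6.085 TPM) overlaps Psmc3ip (0.235 TPM) on the opposite strand, and 9930111J21Rik1 (6.655 TPM) overlaps Psme2b (4.9 TPM) by 41 bases on the same strand. Gm12185, at 0.065 TPM, covers 837 bases of Psme2b on that strand. For most proteasome genes the deposited uncertainty was small. The posterior SD of the count was 0 in both libraries for 31 of the 47 genes, and at most 0.246% of the count in any subunit of the 26S particle. These 31 include Psmb11, which had 0 expected counts, so its SD of 0 does not show certainty. Across the 47 genes, log2(TPM + 0.1) of the libraries had Pearson's r of 0.996 and Spearman's rho of 0.992, a description over genes that share both libraries.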

How the data were processed

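The data are 2 libraries of cytosolic total RNA, without ribosomal RNA, from 1 group. Genome build mm10 and annotation M21 were used by the authors, per the file headers of the deposited readme files; no source used here names the aligner, the quantifiers or the strand of counting. Expected counts, estimates of fragments per gene or transcript that need not be whole, were deposited by the authors from transcriptome alignments, and a second set of estimated counts directly from reads, per the file headers. TPM values were deposited by the authors for both, scaled over all entries of a table. The posterior SD of the counts is another column the authors deposited. Entries without a gene identifier held 0.251% and 0.204% of the counts and were left out.

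The group came from the labels. For ratios between libraries, expected counts were rounded and scaled by TMM in edgeR 4.0.16 (R 4.3.3) over 13392 genes with a mean count of at least 10, and 0.5 was added; DESeq2 1.42.0 gave size factors as an alternative. Levels used deposited TPM, with 0.1 added on the log2 scale, and detection was set at 1 TPM. Intervals are 95% Clopper-Pearson intervals, and they and the floor of 3 counts cover counting error only. Second-quantification values were summed per gene. Python 3.11.15, pandas 2.3.3 and biopython 1.88 were used, the latter to align Psme2 with Psme2b. Promoter sequences are from RefSeq on GRCm38.p6. The ratio script was tested on simulated data.

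Every gene found by the rule was named with its level, with the 4 most abundant genes of the other lists, the 5 lowest leading shares and the genes past 1.5-fold. The other ratios named, the transcripts of Psmb6, the nuclear RNAs named, the complexes compared, the overlaps, the motifs and the promoters shown were chosen after values were seen. Some genes of the other lists are not reported here. The genes and lists were chosen with earlier results of these data known.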

Additional observations from a re-analysis of the deposited data

How the results depend on the processing

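Of 53 values recomputed under another setting, 42 stayed within a bound, 11 moved further and 0 changed sign. The bound was 1.5 times for counts and the SD between libraries for levels, SDs, catalytic pairs and leading shares. For the median log2 ratio it was a fraction of that ratio, not a spread. Values without 1 library fall within the SD of the same libraries almost by construction, so they are no check. Only the log2 differences and the median log2 ratio could change sign. In the second quantification the median level was 6.85 TPM, the SD of log2 TPM over the 31 subunits 0.74, the median log2 ratio -0.15, the median leading share 97.6%, and 1 gene was over 2-fold apart. The median level was 69.1 TPM when TPM were rescaled over nuclear protein-coding genes and 15.9 TPM over the genes at 1 TPM or more. With a pseudocount of 1 TPM the SD over the subunits was 0.73 and the log2 difference of Psmb8 and Psmb5 was 0.72. With a mean count of at least 100, 0 genes were over 1.5-fold apart, since Psma8 was then not tested. Leaving out either library gave 44 genes at 1 TPM, a median level of 14.6 to 15.4 TPM, an SD over the subunits of 0.75 to 0.78, a mean log2 difference over the catalytic pairs of -0.70 to -0.53 and a median leading share of 97.8 to 98.6%. A ratio between libraries has no value without either one. No paired analysis was possible because the 2 libraries form 1 group. Counts limit the chaperones, Psma8 and Psmc3ip; TPM of all genes depends on the share taken by 7SL RNA.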
